A study of Mus musculus with 4 samples.

Results

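The nuclei described here were those of 4 single-nucleus RNA libraries of mouse testis that passed a gate on genes of spermatogonia, the mitotic germ cells from which spermatogenesis starts. A barcode passed when it held at least 1000 UMIs (unique molecular identifiers, each standing for 1 captured RNA molecule), between 500 and 5000 genes, and at least 1 UMI in 3 or more of the 10 genes Sall4, Lin28b, Kit, Dmrt1, Sohlh1, Uchl1, Stra8, Zbtb16, Taf4b and Dmrtb1. It also had to hold no UMI of Wt1, Cyp11a1 or Hsd3b6, which mark Sertoli or Leydig cells, and UMIs in fewer than 2 of the meiotic genes Meiob, Dmc1, Prdm9 and Hormad1. Of 36152 barcodes within the limits on UMIs and genes, 1023 passed (2.83%), and they are called gated nuclei below. The members were thus chosen by the UMI counts of these 17 genes, so the levels of those genes in gated nuclei are a description and carry no test.

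The libraries came from whole testes of 8-week-old male mice on a C57BL/6-based background, 2 from wild-type (WT) animals and 2 from Dhx37-/- animals, and the labels name them as biological replicates. Dhx37-/- mice were homozygous for a floxed Dhx37 allele and carried a Cre driven by the Amh promoter, which acts in Sertoli cells. By this design the germ cells of these mice keep the gene, which was not checked here. Dhx37 encodes an RNA helicase that takes part in building the small ribosomal subunit. Which of the alleles the WT animals carried, and whether animals were pooled, is not given in the sources used here. The libraries held 51797891 to 75611263 UMIs in all, of which the gated nuclei took 678834 to 2168611.

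Spermatogonia lie on the basement membrane of the seminiferous tubule and include a small pool of stem cells, which depend on GDNF from Sertoli cells through the receptor pair of Gfra1 and Ret. Undifferentiated spermatogonia carry factors such as Zbtb16, Etv5 and Foxo1, and retinoic acid moves them into the Kit-positive differentiating state, in which they divide several times. At the end of that series Stra8 and Meiosin switch on the meiotic programme. The 10 gate genes cover all these steps: Sall4 and Zbtb16 are zinc-finger factors of early spermatogonia, Lin28b is an RNA-binding protein that blocks let-7 microRNAs, and Dmrt1 and Dmrtb1 are doublesex-related factors that hold back meiosis or guide its onset. Kit is the receptor for stem cell factor, Sohlh1 is a helix-loop-helix factor of spermatogonia, Taf4b is a germ cell subunit of the general transcription machinery, and Uchl1 is a deubiquitinating enzyme.

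The label of the gate held for a part of the nuclei only. When all 36152 barcodes were clustered without the 17 genes of the rule, 25 clusters were found and 1 of them, led by Auts2, Neto2, Sdk1, Mbnl3, 4930447C04Rik, Lin28b, Cnksr2, Tex11, Cpeb1 and Mki67, held 287 of the 1023 gated nuclei (28.1%). The other 736 gated nuclei were spread over 23 other clusters, with at most 99 in any of them. None lay in the Mageb18-led cluster, which has Wt1 among its leading genes, and 1 lay in the cluster led by Akr1cl, Prlr and other Leydig cell genes, counts that the rule itself keeps low. In what follows the cluster is named after its first gene, Auts2, and the gated nuclei inside and outside it are described apart, since by the genes below most of those outside did not carry the programme that the label names.

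The gate genes chose the nuclei, so the stretch before the start of 4 of them is shown. They are those of the genes with the highest and the lowest share of their UMIs in the Auts2 cluster, among the 6 gate genes that had an entry used here. Each is the 250 bases before the gene's start in RefSeq on GRCm38.p6, given 5′ to 3′ on the gene's own strand, with matches to CANNTG in capitals. CANNTG is the E-box, the core that helix-loop-helix factors such as Sohlh1 read. Lin28b is at chr10:45470202-45470451 on the minus strand, Stra8 at chr6:34920698-34920947 on the plus strand, Sohlh1 at chr2:25847249-25847498 on the minus strand and Dmrtb1, for which the start farthest upstream of 2 was taken, at chr4:107684231-107684480 on the minus strand.
Lin28b: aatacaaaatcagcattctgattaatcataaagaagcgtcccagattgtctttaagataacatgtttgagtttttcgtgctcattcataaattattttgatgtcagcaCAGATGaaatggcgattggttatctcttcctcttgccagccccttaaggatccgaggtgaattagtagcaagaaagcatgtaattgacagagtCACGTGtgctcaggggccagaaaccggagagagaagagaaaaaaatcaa
Stra8: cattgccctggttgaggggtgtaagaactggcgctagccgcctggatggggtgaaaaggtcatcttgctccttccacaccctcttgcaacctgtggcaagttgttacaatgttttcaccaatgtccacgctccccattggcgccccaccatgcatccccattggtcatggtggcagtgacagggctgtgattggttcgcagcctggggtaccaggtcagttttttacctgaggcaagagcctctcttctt
Sohlh1: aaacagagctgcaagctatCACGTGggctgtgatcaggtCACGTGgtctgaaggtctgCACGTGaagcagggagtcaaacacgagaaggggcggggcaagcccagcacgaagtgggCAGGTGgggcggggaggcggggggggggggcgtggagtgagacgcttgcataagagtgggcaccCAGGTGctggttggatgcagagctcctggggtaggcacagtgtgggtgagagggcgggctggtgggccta
Dmrtb1: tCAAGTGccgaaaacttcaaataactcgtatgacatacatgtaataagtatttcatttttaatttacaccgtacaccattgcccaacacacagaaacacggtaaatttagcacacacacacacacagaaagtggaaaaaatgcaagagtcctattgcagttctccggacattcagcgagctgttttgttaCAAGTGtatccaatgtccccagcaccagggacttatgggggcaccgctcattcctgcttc
Sohlh1 had 5 matches, Lin28b and Dmrtb1 had 2 each and Stra8 had none. In all, 3 of the 6 promoters held CANNTG, against 66.2% of 32851 promoters of the same length. None of the 6 held TGACGTCA, the cyclic AMP response element that spermatid factors of the Crem family read, against 1.55% of all promoters. Both motifs read the same on both strands, so 1 search covers both, and these letters mark a match and not a bound site.

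**Figure D1:**
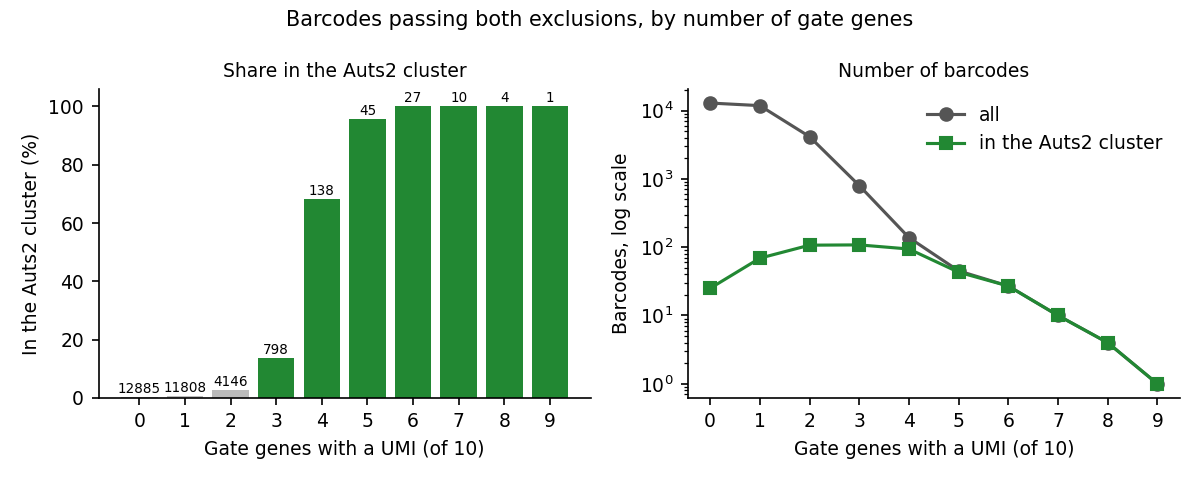
By the number of gate genes with a UMI (horizontal axis), for barcodes that passed both exclusions: left, the share in the Auts2 cluster (percent, with the number of barcodes above each bar and gray bars for those under the threshold of 3 genes), and right, the number of barcodes in all and in the cluster (log scale). The share rose from 13.5% at 3 gate genes to 97.7% at 5 or more.

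How many gate genes a nucleus carried, the value the rule used, differed between these sets. It did not separate them, since 108 of the 287 nuclei in the cluster held exactly 3. Most gated nuclei, 798 of 1023, held exactly 3 gate genes, the smallest number the rule allows, and 13.5% of those lay in the Auts2 cluster. The share in the cluster was 68.1% of 138 nuclei with 4 gate genes, 95.6% of 45 with 5, and 100% of 27 with 6. Just below the threshold, 4146 barcodes held 2 gate genes and 2.58% of them lay in the cluster. Across all gated nuclei, the mean number of gate genes was 4.14 in the cluster and 3.07 outside it, although the nuclei outside were deeper, with a median of 4651.5 UMIs against 3546. When every barcode was thinned to 1000 UMIs before the gate was applied, 123 nuclei passed and 74.0% of them lay in the cluster.

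The genes that carried a nucleus through the gate also differed. In the cluster the combination of Lin28b, Dmrt1 and Taf4b was found in 107 of 287 nuclei (37.3%). Outside it the combination of Kit, Taf4b and Dmrtb1 was found in 196 of 736 (26.6%). Lin28b was at 469, 458, 411 and 465 CPM (UMIs of the gene per 1e6 UMIs of the same nuclei) in the cluster in WT replicates 1 and 2 and Dhx37-/- replicates 1 and 2, and at 28.2, 8.71, 67.4 and 54.0 CPM outside it. Dmrt1 was at 514, 467, 277 and 428 CPM in the cluster, and at 43.5, 48.8, 26.5 and 34.5 CPM outside. For both genes every library of the first set lay above every library of the other.

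Stra8, the retinoic acid target that starts meiosis, was at 185, 57.2, 86.0 and 83.7 CPM in the cluster and at 21.1, 8.71, 13.3 and 19.5 CPM outside. Zbtb16, the factor also known as PLZF, was at 64.8, 124, 177 and 237 CPM in the cluster and at 30.5, 10.5, 32.1 and 8.46 CPM outside. Like Lin28b and Dmrt1, both were higher in the cluster in all 4 libraries. Sall4 was sparse, with 39 UMIs in all 1023 gated nuclei, 59.0% of them in the cluster, and none there in either WT library. Kit, Uchl1 and Taf4b showed no such separation. Taf4b was at 309, 372, 306 and 264 CPM in the cluster and at 342, 312, 170 and 277 CPM outside.

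Dmrtb1 and Sohlh1 lay the other way. Dmrtb1 was at 89.8, 66.7, 105 and 119 CPM in the cluster and at 190, 176, 228 and 205 CPM outside. Sohlh1 was at 24.9, 47.7, 38.2 and 39.5 CPM in the cluster and at 48.2, 66.2, 97.3 and 47.5 CPM outside. Both were higher outside in all 4 libraries. In all, 4 of the 10 gate genes were higher in the cluster in every library and 2 were lower. Among 16701 genes at 5 CPM or more those shares were 37.7 and 33.7%, so the counts alone do not set the gate genes apart. By the combinations given above, the 2 sets of nuclei were admitted by partly different genes. The share of gated UMIs that lay in the cluster ran from 77.2% for Dmrt1, 75.1% for Lin28b, 74.2% for Zbtb16 and 63.7% for Stra8 down to 15.2% for Sohlh1 and 13.5% for Dmrtb1.

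**Figure D2:**
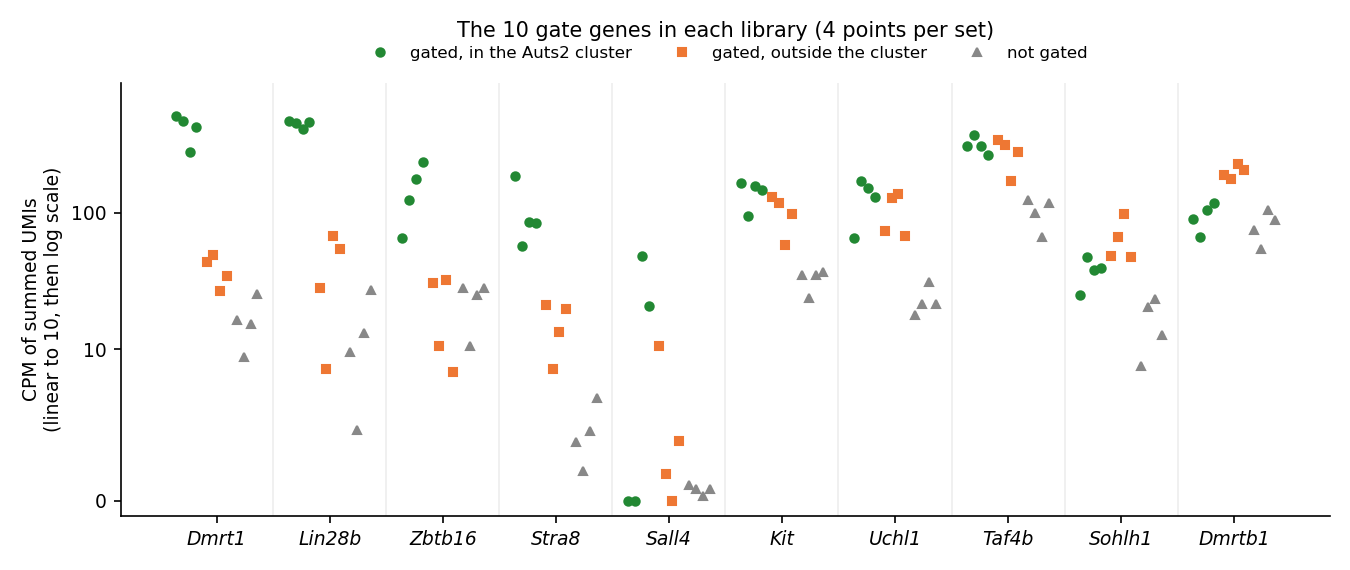
Level of each of the 10 gate genes (CPM, linear to 10 and then a log scale) in gated nuclei of the Auts2 cluster, gated nuclei outside it and barcodes that were not gated, with 1 point for each of the 4 libraries. Lin28b, Dmrt1, Stra8 and Zbtb16 were higher in the cluster than in gated nuclei outside it in every library, and Dmrtb1 and Sohlh1 were lower. These are 4 and 2 of the 10 genes, beside 37.7 and 33.7% of 16701 genes at 5 CPM or more.

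UMIs of several gate genes were also found in clusters led by genes of somatic cells. The share of free RNA was not estimated for these clusters. Of the nuclei in the cluster led by Slc9a9 and F13a1, with the macrophage genes Ptprc and Mrc1, 14.7% held a Dmrtb1 UMI, 13.3% a Zbtb16 UMI, 7.74% a Taf4b UMI and 1.11% a Lin28b UMI, at a median depth of 2633 UMIs. Among gated nuclei outside the Auts2 cluster, 82.2% held Dmrtb1, 75.3% Taf4b and 13.04% Lin28b. In the gated nuclei of the cluster 33.8% held Dmrtb1, 69.7% Taf4b and 80.1% Lin28b. The rule fixes part of these shares in gated nuclei. Kit reached 517 CPM in the Akr1cl-led cluster of Leydig cell genes and Zbtb16 reached 363 CPM there. Both lay above their mean of 141 and 151 CPM in the gated nuclei of the Auts2 cluster. Dmrt1 reached 227 CPM in the Mageb18-led cluster. Some clusters with larger round or condensing spermatid sums also held gate genes. Over all barcodes, Taf4b was at 345.1 and 345.6 CPM in the Gm42397-led and Gabrg3-led clusters, against 240.1 CPM in the Auts2 cluster. Sohlh1 and Uchl1 were at 97.5 and 123.3 CPM in the Ung-led cluster, against 19.7 and 65.1 CPM. Dmrtb1 reached 321.1 CPM in the mt-Cytb-led cluster, against 105.5 CPM. Sall4, Lin28b, Kit, Dmrt1, Stra8 and Zbtb16 were lower in each than in the Auts2 cluster.

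Each set of gated nuclei had a share of UMIs that could come from free RNA in the droplets. Taking Prm1, Prm2, Tnp1 and Tnp2, the protamine and transition protein genes of condensing spermatids, as wholly foreign to these nuclei, at most 37.4, 22.1, 24.6 and 21.9% of the UMIs of gated nuclei were free RNA in WT replicates 1 and 2 and Dhx37-/- replicates 1 and 2. In the cluster that limit was 28.0, 12.3, 12.3 and 15.3%. Scrublet called 107 of the gated nuclei doublets (10.5%) and 4.18% of the other barcodes. No gated barcode was shared between libraries, and 17 to 28 barcodes of any pair were shared among all within the limits.

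The 20 genes with the highest ratio of gated nuclei over all other barcodes included Lin28b, Dmrt1, Uchl1 and Kit, which belong to the rule. Outside the rule they were led by Mbnl3, a splicing factor, at 67.9 against 7.22 CPM (9.42-fold), Elavl2, an RNA-binding protein of neurons and germ cells, at 6.53-fold, and Auts2, a regulator of chromatin, at 5.04-fold. They also included Cpeb1, which controls the polyadenylation of germ cell mRNAs, Hells, a chromatin remodeller needed for DNA methylation, Scml2, a Polycomb protein of the germ line, and Fkbp6, a co-chaperone of the piRNA pathway. Auts2 stood at a mean of 3458 CPM in the cluster and 47.0 CPM in gated nuclei outside it. The others named here that are not in the rule were at 316 CPM or more in the cluster and 26.7 CPM or less outside. Of 3661 genes at 50 CPM or more in the gated nuclei of every library, 57 exceeded a ratio of 2.

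Genes outside the rule were then compared between the gated nuclei of the cluster and those outside it. A gene was counted as higher when the gated nuclei of the cluster lay above those outside it in all 4 libraries, which held for 37.7% of 16701 genes at 5 CPM or more, while 33.7% were lower in all 4. This is a description, since the cluster was formed from these genes. Among 15 genes of the whole germ line 11 were higher, among them Dazl, the RNA-binding protein that gives germ cells their identity, at 574, 553, 492 and 471 CPM in the cluster and 39.9, 31.4, 24.3 and 31.3 CPM outside. Ddx4, the germ line helicase also known as Vasa, did not separate, at 344, 448, 292 and 376 CPM in the cluster and 443, 375, 399 and 402 CPM outside. Of 14 genes of differentiating spermatogonia 9 were higher, including Scml2 at a mean of 326 against 16.95 CPM and Dnmt3b, a de novo DNA methyltransferase, at 59.5 against 1.06 CPM.

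Of 25 genes of undifferentiated spermatogonia 3 were higher and 3 lower in all 4 libraries. The shares among all genes, 37.7 and 33.7%, cover genes at 5 CPM or more. The list has no such limit, so the 2 are not directly comparable. Their summed level was 554, 696, 779 and 842 CPM in the cluster and 150.4, 183, 167 and 191 CPM outside, so the sum was higher in the cluster in every library although few single members were. Foxo1 was the clearest of them, at 175, 143, 201 and 209 CPM in the cluster and at 14.1, 12.2, 11.1 and 2.60 CPM outside. In the cluster Lin28a was at 259, 305, 81.2 and 71.1 CPM and Glis3 at 4.99, 105, 249 and 313 CPM. Together with Foxo1 they gave most of the sum in each library, so it reflects few members of the list. Gfra1, the GDNF receptor, was at a mean of 47.2 CPM in the cluster and 34.4 CPM outside, and Utf1, Pdx1 and Tcl1 had no UMI in the cluster. A count of 0 among the 1147510 UMIs of these nuclei allows a level of up to 2.61 CPM (3 counts).

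Genes of division were often higher in the cluster. That held for 20 of 25 genes of DNA replication and 18 of 22 genes of mitosis. Hells was at 449, 553, 516 and 531 CPM in the cluster and at 22.3, 8.71, 46.4 and 29.3 CPM outside. Mki67, the antigen of cycling cells, was at 150, 238, 148 and 272 CPM in the cluster and at most at 11.7 CPM outside. Of 18 genes of DNA methylation and chromatin 13 were higher, with Tet3, which oxidises 5-methylcytosine, at a mean of 279 against 4.79 CPM. Of 27 genes of the small subunit processome, the complex in which Dhx37 works, 21 were higher.

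Of 24 genes for receptors of signals from the niche 12 were higher in the cluster and 3 lower, with the insulin-like growth factor receptor Igf1r at 683, 553, 573 and 577 CPM against 36.4, 3.48, 46.4 and 11.7 CPM and the bone morphogenetic protein receptor Bmpr1a at a mean of 196 against 6.30 CPM. Of 20 genes of retinoic acid synthesis and response 3 were higher and 7 lower, and Rara was at 29.6 against 58.5 CPM. Among 23 genes of meiotic entry 15 were higher, with Tex11 at 272 against 7.04 CPM, Sycp1, a part of the synaptonemal complex, at 709 against 198 CPM, and Meiosin at 36.9 against 0.294 CPM.

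Spermatid genes were higher outside the cluster without exception, as 13 of 13 genes of round spermatids and 14 of 14 of condensing spermatids were lower in the cluster in all 4 libraries. Acrv1, an acrosomal protein, was at 84.8, 85.8, 33.5 and 86.9 CPM in the cluster and at 402, 608, 360 and 613 CPM outside. The summed level of the round spermatid list was 2609, 2917, 2193 and 2870.3 CPM in gated nuclei outside the cluster and 2372, 2576, 2225 and 2556 CPM in barcodes that were not gated, so by these genes the gated nuclei outside lay near the other barcodes. In the cluster that sum was 828, 706, 521 and 749 CPM.

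Genes of somatic cells were also counted. The 12 Sertoli cell genes summed to 294, 381, 879 and 570 CPM in the gated nuclei of the cluster. In the gated nuclei outside it they summed to 139, 153, 286 and 241 CPM. Free RNA taken alone was at 512, 580, 913 and 835 CPM. By the limit above it made up at most 28.0, 12.3, 12.3 and 15.3% of the UMIs in the cluster, so these levels are not directly comparable. The part of free RNA in the Sertoli cell sums was not tested. Of the 12 genes 7 were higher in the cluster in all 4 libraries and 2 were lower. Ctsl and Clu gave most of it, while Amh and Fshr had 1 UMI each in all 4 libraries. The 9 macrophage genes summed to 19.1 to 44.9 CPM, with Ptprc and Cd163 at 0. The part of these genes in the results below was not tested.

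**Figure D3:**
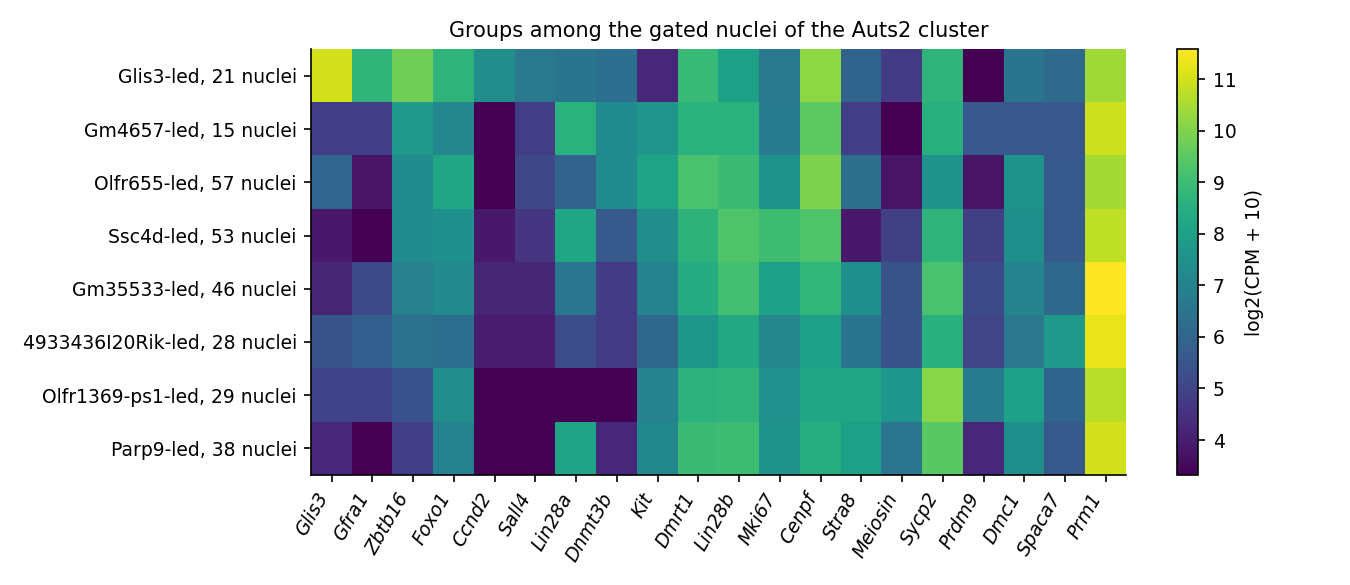
Levels of 20 marker genes (columns, colour as log2 of CPM plus 10) in the 8 groups into which the 287 gated nuclei of the Auts2 cluster fell (rows, each with its first leading gene and number of nuclei). Glis3, Gfra1 and Zbtb16 were highest in the Glis3-led group, of 21 nuclei, and Meiosin in the group led by Olfr1369-ps1, of 29 nuclei.

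Within the cluster the gated nuclei fell into 8 groups when clustered again without the genes of the rule. These groups are given as a description, since their leading genes formed them. The Glis3-led group, with 21 nuclei, had the highest sum of the genes of undifferentiated spermatogonia. There Glis3 was at 2079 CPM, Zbtb16 at 871 CPM, Gfra1 at 418 CPM, Foxo1 at 409 CPM, Etv5 at 124 CPM and Ret at 71.1 CPM. Not every member of that list was high there, since Id4 had no UMI. Kit stood at 8.89 CPM from 1 UMI, and the summed level of the undifferentiated list was 3661 CPM against 270 to 696 CPM in the other groups. Its nuclei came 0, 1, 5 and 15 from WT replicates 1 and 2 and Dhx37-/- replicates 1 and 2, so WT was represented by 1 nucleus.

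Kit was higher in all the other groups. The Olfr655-led group of 57 nuclei had the highest Kit, at 267 CPM, and Dmrt1, at 579 CPM, with Dnmt3b at 149 CPM and Cenpf, a centromere protein of dividing cells, at 1012 CPM, against 1146 CPM in the Glis3-led group, where Cenpf was highest. The Ssc4d-led group of 53 nuclei had the highest Mki67, at 512 CPM, and Lin28b, at 626 CPM, with Stra8 at 4.93 CPM. The Gm4657-led group of 15 nuclei was the smallest, with Hells at 847 CPM from 12 of its nuclei and Lin28a at 376 CPM from 20 UMIs in 3 of them, beside 9 UMIs in 8 of the 21 nuclei of the Glis3-led group.

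Genes of meiotic entry had their highest sums in a pair of groups, at 6112 and 5389 CPM against 2941 to 4178 CPM in the others. The rule allows fewer than 2 of Meiob, Dmc1, Prdm9 and Hormad1 in any gated nucleus. In the group of 29 nuclei led by Olfr1369-ps1, Sdk1, Pbx3 and Meiosin, Meiosin was at 193 CPM, Stra8 at 279 CPM, Sycp2 at 1104 CPM and Prdm9, which sets recombination sites, at 96.5 CPM, while Sall4 and Lin28a had no UMI. In the Parp9-led group of 38 nuclei Stra8 was at 248 CPM and Sycp1 at 1038 CPM. Of these 38 nuclei 35 came from WT replicate 1 (92.1%), and Rn18s-rs5, a ribosomal RNA locus, stood at 40866 CPM, against 10068 CPM in the other gated nuclei of the cluster. This group therefore stands close to a single library.

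The remaining groups stood apart in quality. The Gm35533-led group of 46 nuclei was the shallowest, with a median of 2381 UMIs, and had the highest Prm1, at 3056 CPM, and Ctsl at 705 CPM. The 4933436I20Rik-led group of 28 nuclei was the deepest, with a median of 6324.5 UMIs, and Scrublet called 26 of the 28 doublets. Its round spermatid genes had the highest sum of the 8 groups, 1659 CPM, with Acrv1 at 241 CPM and Spaca7 at 212 CPM, while the condensing spermatid genes summed to 8541 CPM here and to 9407 CPM in the Gm35533-led group. These were all the doublet calls among the 287 nuclei.

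**Figure D4:**
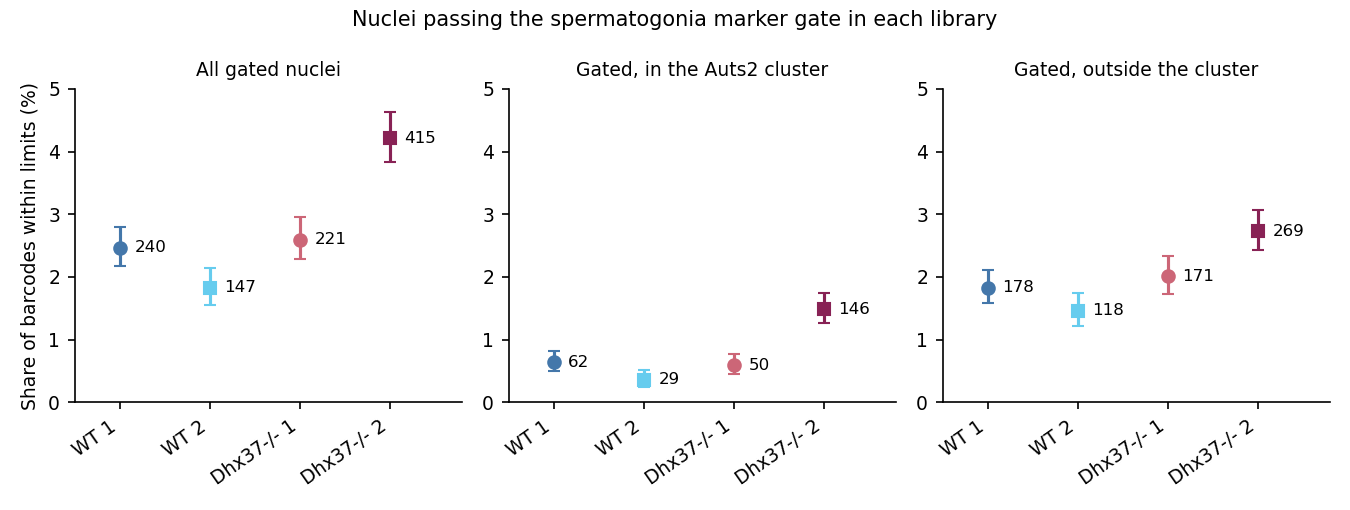
Share of barcodes within the limits (percent) that were gated, that were gated and in the Auts2 cluster, and that were gated outside it, for each of the 4 libraries, with 95% Wilson intervals as error bars and the number of nuclei beside each point. Dhx37-/- replicate 2 stood above the other 3 libraries in each panel.

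The first comparison between genotypes asked whether the share of barcodes that passed the gate differed with loss of Dhx37 in Sertoli cells. A share of captured barcodes does not give the number of cells in a testis, since it also depends on the other cells. The paper reports smaller Dhx37-/- testes with fewer TRA98-positive germ cells and PLZF-positive cells almost lost. The gated share was 2.46% in WT replicate 1 (240 of 9742 barcodes, 95% Wilson interval 2.17 to 2.79), 1.82% in WT replicate 2 (147 of 8057, 1.55 to 2.14), 2.60% in Dhx37-/- replicate 1 (221 of 8509, 2.28 to 2.96) and 4.22% in Dhx37-/- replicate 2 (415 of 9844, 3.84 to 4.63). These intervals cover counting error only. The WT mean was 2.14% ± 0.452 and the Dhx37-/- mean 3.41% ± 1.14 (SD, n = 2 each). The difference of 1.26 percentage points gave an exact permutation p of 0.33, two-sided, which is the smallest that 2 libraries against 2 can give. The genotypes did not overlap, but WT replicate 1 and Dhx37-/- replicate 1 had overlapping intervals and the difference was 0.453 points without Dhx37-/- replicate 2. Gated nuclei were deeper in Dhx37-/-, with medians of 3857 and 4237 UMIs in WT and 4518 and 4721 UMIs in Dhx37-/-, as were the other barcodes, at 3321 and 3702.5 against 3790.5 and 4174 UMIs. After thinning to 1000 UMIs the shares were 0.195 and 0.149% in WT and 0.223 and 0.742% in Dhx37-/-. The difference was 0.310 points between smaller shares. Genes of the exclusions also differed. In barcodes that were not gated, Wt1, Cyp11a1 and Hsd3b6 summed to 89.2 and 75.8 CPM in WT and 228 and 183 CPM in Dhx37-/-. In free RNA they summed to 122 and 90.8 against 178 and 189 CPM. The 4 meiotic genes of the rule summed to 129 and 122 against 197 and 207 CPM in barcodes that were not gated. What this did to the gated shares was not tested.

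Gated nuclei of the Auts2 cluster made up 0.636 and 0.360% of the WT barcodes and 0.588 and 1.48% of the Dhx37-/- barcodes, from 62, 29, 50 and 146 nuclei. The genotypes overlapped, and the exact permutation p was 0.67, two-sided, for a difference of 0.537 points (n = 2 each). That difference was 0.0894 points without Dhx37-/- replicate 2 and 0.985 points without Dhx37-/- replicate 1. With 4 gate genes required or with doublets left out it was 0.522 and 0.536 points and the genotypes did not overlap (exact permutation p = 0.33, two-sided). With doublets left out the nearest libraries were almost equal, at 0.601% in WT replicate 1 and 0.602% in Dhx37-/- replicate 1. Of all barcodes in the cluster, the gate took 35.2 and 37.7% in WT and 21.7 and 24.7% in Dhx37-/-. Of the 788 barcodes it did not take, 503 held fewer than 3 gate genes, 216 held 2 or more meiotic genes and 69 held a UMI of Wt1, Cyp11a1 or Hsd3b6. The cluster as a whole was 1.81 and 0.956% of WT barcodes and 2.70 and 6.01% of Dhx37-/- barcodes.

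The second comparison asked which genes differed between genotypes in gated nuclei, from UMIs summed over the nuclei of each library. Dhx37 itself had 11, 4, 10 and 26 UMIs, or 10.5, 5.89, 8.98 and 11.99 CPM, in WT replicates 1 and 2 and Dhx37-/- replicates 1 and 2. Its log2 fold change, Dhx37-/- over WT, was 0.20 ± 0.56 (SE), with an edgeR adjusted p of 0.888. This does not check the labels, because the Cre is not meant to act in germ cells. The counts also come from the 3′ end of the transcript and not from the deleted exon.

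In edgeR (quasi-likelihood F-test, p adjusted by Benjamini-Hochberg) 0 of 13814 genes passed an adjusted p of 0.05 in all gated nuclei (0%), while 2097 had an unadjusted p under 0.05, 1013 with a higher and 1084 with a lower estimate in Dhx37-/-. That split turned with the scaling, to 1555 and 644 with library totals alone and to 873 and 1255 with DESeq2 size factors. The smallest adjusted p was 0.0951, and DESeq2 called 26 genes. The genotypes did not overlap for 50.6% of the genes tested. Leaving out a library sets 1 sample against 2, so that the lone sample is assumed to vary like the other genotype, and edgeR then called 898 genes without WT replicate 1, 513 without WT replicate 2, 29 without Dhx37-/- replicate 1 and 36 without Dhx37-/- replicate 2.

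The genes with the smallest p are given although none was called. Among those with a higher estimate, the smallest p was that of 4930581F22Rik, at 20.0 and 23.6 CPM in WT and 119 and 104 CPM in Dhx37-/-, a log2 fold change of 2.22 ± 0.34 (adjusted p = 0.0951). Magi2, a scaffold protein, was at 300.5 and 271 CPM in WT and 913 and 937 CPM in Dhx37-/-, a log2 fold change of 1.56 ± 0.25. Its estimate had the other sign in the gated nuclei of the Auts2 cluster, where it was at 125 and 105 CPM in WT and 71.7 and 85.3 CPM in Dhx37-/-. Neb, which encodes the muscle protein nebulin, was at 24.7 and 47.1 CPM in WT and 171 and 160.5 CPM in Dhx37-/-. Gm14244, Kcnk10 and 4930444F02Rik, also among these genes, are leading genes of the Stox1-led cluster, whose 24 gated nuclei came 1, 0, 7 and 16 from the 4 libraries, and Neb is a leading gene of the Epha7-led cluster, whose 18 gated nuclei came 2, 0, 9 and 7.

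Among the genes with lower estimates, Gm13169 was at 44.7 and 84.0 CPM in WT and 0 and 4.61 CPM in Dhx37-/-. Abcb10, a mitochondrial transporter, was at 119 and 130 CPM in WT and 26.0 and 37.4 CPM in Dhx37-/-, a log2 fold change of -2.07 ± 0.32 (adjusted p = 0.0951). Unc13d, a factor of vesicle fusion, was at 20.9 and 35.4 CPM in WT and 2.69 and 2.31 CPM in Dhx37-/-. In all these genes both libraries of a genotype lay on the same side, as they did for 50.6% of genes.

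No gene of the lists outside the rule passed the test in all gated nuclei. Estimates for mitosis genes were higher in Dhx37-/- for 20 of 22 members, with a median log2 fold change of 0.59, beside 51.6% of all genes and a median of 0.03. Those for round spermatid genes were lower for 12 of 13 members, with a median of -0.32. Condensing spermatid genes had higher estimates in 10 of 14 members, with a median of 0.17 and sums of 7505 and 8836 CPM in WT and 15767 and 10567 CPM in Dhx37-/-. Pachytene genes had higher estimates in 9 of 11 members, with a median of 0.39, and Leydig cell genes in 5 of 7, with a median of 0.80. Small subunit processome genes had a higher estimate in 18 of 21 members, with a median of 0.20. The share of gated nuclei in the Auts2 cluster was 25.8 and 19.7% in WT and 22.6 and 35.2% in Dhx37-/-, and the genotypes overlapped. In the gated nuclei outside the cluster mitosis genes had a higher estimate in 15 of 18 members tested, with a median of 0.73, and none was called. Sertoli cell genes had higher estimates in 7 of 9 members, with a median of 0.80, and their sum was 168 and 189 CPM in WT and 398 and 337 CPM in Dhx37-/-. In barcodes that were not gated, mitosis genes summed to 710 and 705 CPM in WT and 878 and 872 CPM in Dhx37-/-. Sertoli cell genes there were at 205 and 187 against 443 and 375 CPM. Leydig cell genes were at 592 and 270 against 995 and 971 CPM, and processome genes at 512 and 574 against 663 and 682 CPM. In gated nuclei mitosis genes summed to 970 and 803 against 1378 and 1531 CPM. Processome genes there summed to 696 and 729 against 910 and 1002 CPM. Leydig cell sums overlapped, at 164 and 85.4 against 255 and 158 CPM. Pachytene genes in barcodes that were not gated were at 1856 and 2344 against 2630 and 2433 CPM. Condensing spermatid genes were at 8769 and 10003 against 16869 and 11999 CPM. Higher sums in Dhx37-/- were thus also found in barcodes that were not gated, and the sizes were not compared. Round spermatid sums overlapped there. The part of Sertoli cell genes in the other estimates was not tested.

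**Figure D5:**
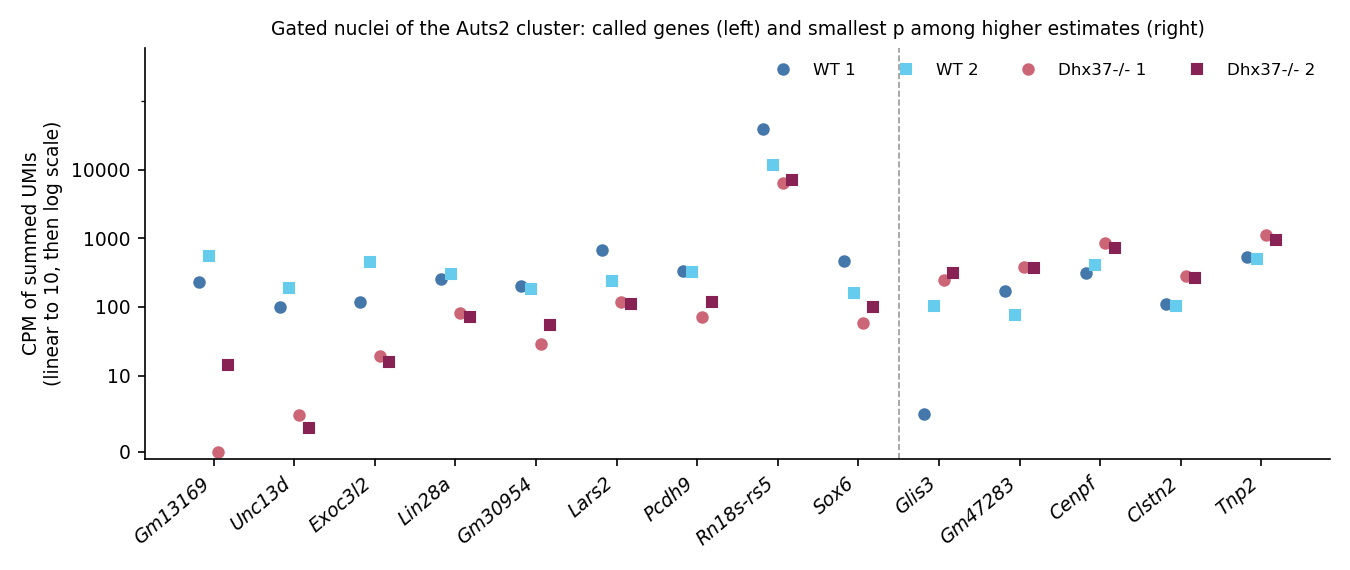
Level (CPM, linear to 10 and then a log scale) in gated nuclei of the Auts2 cluster, with 1 point for each library, of the 9 genes called lower in Dhx37-/- (left of the dashed line) and of the 5 genes with the smallest p among those with a higher estimate, none called (right). For each of the 9 genes both Dhx37-/- libraries lay below both WT libraries.

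Restricted to the gated nuclei of the Auts2 cluster, a subset chosen after the values had been seen, the same test called 9 of 5905 genes (0.152%), all lower in Dhx37-/-. Other settings changed the number of calls, and some gave higher calls as well, as listed in the closing section. At an unadjusted p under 0.05 there were 228 genes with a higher and 307 with a lower estimate, and 282 and 228 with library totals alone. The genotypes did not overlap for 39.9% of the genes tested. The genes compared had also formed the cluster, so these calls are no independent evidence.

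Lin28a, the paralogue of Lin28b, was the only member of the lists among the calls. It was at 259 and 305 CPM in WT and at 81.2 and 71.1 CPM in Dhx37-/-, from 52, 32, 17 and 45 UMIs. The log2 fold change was -1.95 ± 0.30, with an edgeR adjusted p of 0.00770. The nuclei with a Lin28a UMI were 10 of 62, 6 of 29, 8 of 50 and 21 of 146, or 16.1 and 20.7% in WT and 16 and 14.4% in Dhx37-/-, so the WT shares lay above the Dhx37-/- shares, by the least between replicate 1 of each. A single nucleus held 19 of the 52 UMIs in WT replicate 1 and 17 of the 32 in WT replicate 2, against at most 6 in Dhx37-/-. Without the nucleus that held the most Lin28a in each library the levels were 165 and 143 CPM in WT and 57.3 and 61.6 CPM in Dhx37-/-, and the adjusted p was 0.106. With 1 library left out, under the same assumption on the lone sample, the call was lost without WT replicate 2 (adjusted p = 0.110), without Dhx37-/- replicate 2 (adjusted p = 0.0752). It was also lost without the Parp9-led group (adjusted p = 0.183). Over all 12 alternatives run the estimate lay between -2.10 and -1.55.

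The largest estimates were those of Unc13d and Gm13169. Gm13169, a gene model without a known function, was at 234 and 544 CPM in WT and at 0 and 14.2 CPM in Dhx37-/-, a log2 fold change of -5.13 ± 0.54 (adjusted p = 1.49e-04). Unc13d was at 99.7 and 191 CPM in WT and at 4.78 and 3.16 CPM in Dhx37-/- (adjusted p = 0.00243). Exoc3l2, a relative of the exocyst subunits, was at 120 and 448 CPM in WT and at 19.1 and 15.8 CPM in Dhx37-/- (adjusted p = 0.00344). Its estimate had the other sign in gated nuclei outside the cluster, where it was at 9.40 and 3.48 CPM in WT and 24.3 and 16.3 CPM in Dhx37-/- (edgeR adjusted p = 0.391). These 3 calls rested on few nuclei. In Unc13d 1 nucleus held 17 of the 20 UMIs of WT replicate 1 and another 19 of the 20 of WT replicate 2, and in the same way 1 nucleus held 21 of 24 and 44 of 47 Exoc3l2 UMIs. Without the highest nucleus of each library Exoc3l2 was at 14.96 and 28.6 CPM in WT and at 14.3 and 12.6 CPM in Dhx37-/-, and both genes had too few UMIs left to be tested. Gm13169 was found in 4, 5, 0 and 4 nuclei, with 20 of 47 and 31 of 57 UMIs in 1 nucleus of each WT library, and stayed called without these (adjusted p = 9.54e-05). Exoc3l2 was a leading gene of the Ssc4d-led group, Unc13d of the Parp9-led group and Gm13169 of the Gm4657-led group.

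The other calls were of moderate size. Pcdh9, a protocadherin, was at 329 and 324 CPM in WT and at 71.7 and 119 CPM in Dhx37-/- (log2 fold change -1.74, adjusted p = 0.0173). Sox6, a transcription factor, was at 474 and 162 CPM in WT and at 57.4 and 101 CPM in Dhx37-/-, and Gm30954 was at 204 and 181 against 28.7 and 53.7 CPM. Pcdh9 and Sox6 were higher in all gated nuclei than in those of the cluster, with Sox6 at 1224 and 806 CPM in WT and Pcdh9 at 1815 and 1411 CPM, so most of their RNA lay outside it. Within the cluster the 4933436I20Rik-led group of 28 nuclei, 26 of them called doublets, held 124 of the 188 Sox6 UMIs, 90 of the 190 Pcdh9 UMIs and 78 of the 100 Gm30954 UMIs. With doublets left out the adjusted p was 0.00447 for Pcdh9 and 0.452 for Sox6, and Gm30954 had too few UMIs to be tested.

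The calls also held Rn18s-rs5, a ribosomal RNA locus whose reads are uncertain because near-identical copies exist. It was at 38923 and 11643 CPM in WT and at 6409 and 6986 CPM in Dhx37-/-. Lars2, a mitochondrial leucyl-tRNA synthetase gene, was at 683 and 238 CPM in WT and at 119 and 109 CPM in Dhx37-/-. Lars2 was found in 51 of 62, 16 of 29, 18 of 50 and 51 of 146 nuclei, a share of 82.3 and 55.2% in WT and 36.0 and 34.9% in Dhx37-/-. WT replicate 1 was highest for both genes, and this library held 35 of the 38 nuclei of the Parp9-led group. It was also highest in the gated nuclei outside the cluster, where Rn18s-rs5 was at 16506 and 3690.1 CPM in WT and 2397 and 2635 CPM in Dhx37-/-, and Lars2 at 223 and 57.5 CPM in WT and 32.1 and 32.6 CPM in Dhx37-/-. Without the Parp9-led group, which left 27 of 62 nuclei in WT replicate 1 and 4742 genes to test, 1 gene was called in place of 9. The estimates of Lin28a, Gm30954, Lars2, Pcdh9, Rn18s-rs5 and Sox6 then lay between -2.51 and -1.82 on the log2 scale. With each gene stripped instead of its highest nucleus in each library, an alternative chosen after seeing the data, 4 of the 9 were still called, namely Gm13169, Lars2, Pcdh9 and Rn18s-rs5. Both Lars2 and Rn18s-rs5 fell from WT replicate 1 to WT replicate 2 and were lowest in the Dhx37-/- libraries, in the cluster and outside it. Whether the Lars2 and Rn18s-rs5 calls are separate signals was not tested.

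Glis3, the leading gene of the group with the highest sum of undifferentiated genes, was the gene with the smallest p among those with a higher estimate. It was at 4.99 and 105 CPM in WT and at 249 and 313 CPM in Dhx37-/-, a log2 fold change of 2.73 ± 0.55 that did not pass (adjusted p = 0.0550). WT replicate 1, which held 62 gated nuclei of the cluster and none of the Glis3-led group, had 1 Glis3 UMI, and the 11 of WT replicate 2 were all in 1 nucleus, against 8 and 28 nuclei with Glis3 in Dhx37-/-. Of the 5 undifferentiated genes that could be tested, 4 had a higher estimate.

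No other list had a member called in the cluster. Mitosis genes had a higher estimate in 14 of 15 members with a median of 0.20, beside 49.1% of all genes and a median of -0.01, and Cenpf was the nearest to the threshold, at 314 and 410 CPM in WT and 865 and 716 CPM in Dhx37-/- (adjusted p = 0.107). DNA methylation genes had a higher estimate in 7 of 15 members, meiotic entry genes in 6 of 18 and small subunit processome genes in 7 of 14. The 3 Sertoli cell genes tested, Ctsl, Clu and Aard, all had higher estimates, with a median of 1.10 and none called. Condensing spermatid genes had a higher estimate in 11 of 14 members, with a median of 0.16. Their sums were 5117 and 4587 CPM in WT and 7685 and 6824 CPM in Dhx37-/-. The part of Sertoli cell and spermatid genes in the other estimates of the cluster was not tested.

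Outside the cluster 0 of 11734 genes passed (0%) and the genotypes did not overlap for 46.7% of them, with a smallest adjusted p of 0.0660 and 948 genes with a higher and 480 with a lower estimate at an unadjusted p under 0.05. Lin28b, which as a gate gene carries no test, was at 28.2 and 8.71 CPM in WT and 67.4 and 54.0 CPM in Dhx37-/- there. In the Stox1-led and Epha7-led clusters Lin28b was at 171 and 130 CPM, the highest outside the Auts2 cluster.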

How the data were processed

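Nuclei of whole testes had been captured with 10x Genomics 3′ chemistry in 4 libraries. The deposited values were raw UMI counts of 55357 genes in each barcode, made by the authors with Cell Ranger before any normalization or filter, and no column of another series was among them. Builds conflict: the submitters' processing notes name GRCm38 and mm10, and the study's methods another build, so no coordinate was taken from the counts. The notes also name Seurat 3.1.1 and bcl2fastq.

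The members and the 23 gene lists (357 of 358 genes had a row) were chosen with earlier results of these data known. UMIs were summed per library and compared by genotype alone with edgeR 4.0.16 under R 4.3.3 (TMM, filterByExpr, quasi-likelihood F-test, two-sided, Benjamini-Hochberg adjusted p under 0.05), since nuclei of a library are not replicates. Clustering in Python 3.11.15 used 2000 variable genes, 10 principal components, 20 neighbours and Leiden (leidenalg 0.10.2) at resolution 1, without the 17 genes of the rule. For the 8 groups, 8 components and 15 neighbours were used. Doublets were called with Scrublet in scanpy 1.11.5 and kept. Free RNA was taken from barcodes with 100 to 400 UMIs. Alternatives included DESeq2 1.42.0 and those in the closing section. The comparison within the Auts2 cluster, and every alternative that involves that cluster, was added after the data had been seen.

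Genes named were the genes of the rule and lists (in each list the members with the highest level, those called and those most unlike the rest), Dhx37, the 10 genes of smallest p with higher and with lower estimates, the 20 with the highest ratio of gated to other barcodes and the 5 leading genes of each group. Leading genes of the clusters fall outside that rule and were named after their values had been seen. The edgeR script was tested on simulated counts. Replicate numbers do not pair the libraries by the labels. Same-numbered libraries deviated from their group means with a correlation of -0.15 over 7254 genes. Promoters came from RefSeq on GRCm38.p6.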

Additional observations from a re-analysis of the deposited data

How the results depend on the processing

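The gated share stayed higher in Dhx37-/- under all 6 alternatives to the gate, all of which kept the exclusions. The difference was 0.310 to 2.15 percentage points, with an exact permutation p of 0.33 or 0.67. It ran from 0.453 to 2.07 points as each library was left out. The share of gated nuclei in the Auts2 cluster was 28.1%, and became 7.62% with 2 gate genes required, 79.6% with 4, 97.7% with 5 and 74.0% after thinning to 1000 UMIs. The share of barcodes both gated and in the cluster differed by 0.0894 to 0.985 points as each library was left out, and by 0.228 points after thinning. Other resolutions, 30 components or leaving out doublets gave 25.2 to 28.5% of gated nuclei in the cluster.

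In all gated nuclei, where edgeR called 0 genes, DESeq2 called 26 genes (14 higher and 12 lower in Dhx37-/-), edgeR without a filter 152 (96 and 56), with doublets left out 5 (3 and 2), with free RNA subtracted 15, all higher, and with 4 gate genes required 1, lower. In the nuclei of the Auts2 cluster it called 9, all lower, and over every barcode of that cluster 68 (48 and 20). As each library was left out, with the lone sample assumed to vary like the other genotype, 29 to 898 genes were called (12 to 353 higher and 17 to 545 lower). Library totals alone moved the median log2 fold change to 0.16 and called 0. Estimates turned negative for Magi2 in the gated nuclei of the cluster (-0.60) and over every barcode of the cluster (-0.24), and over those barcodes for 4930581F22Rik (-0.16) and Neb (-0.15). The cause was not tested.

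The replicate block called 7 genes in all gated nuclei (4 higher and 3 lower) and 7, all lower, in those of the cluster. A crossed pairing, tried after seeing a correlation of -0.15 between same-numbered libraries, called 34 genes (19 higher and 15 lower).

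In the gated nuclei of the cluster, where 9 genes were called, DESeq2 called 2, both lower, edgeR without a filter 39 (5 higher and 34 lower) edgeR without the Parp9-led group 1, lower, and with each gene stripped of its highest nucleus in each library 5 (1 higher and 4 lower). The higher one, Glis3, follows from the removal itself, since each WT library held Glis3 in 1 nucleus. As each library was left out, 5 to 54 genes were called, 1 to 11 higher and 4 to 48 lower. Leaving out WT replicate 1 gave 54, WT replicate 2 gave 5, Dhx37-/- replicate 1 gave 22 and Dhx37-/- replicate 2 gave 52. Over the 20 genes named there, 184 of 232 alternative estimates kept their direction and side of the threshold. Of the rest 33 lost the call, 15 gained it and none changed sign. Settings in which a gene had too few UMIs to be tested are not among the 232. These genes were picked by smallest p from the same counts that the alternatives reuse, so the kept direction is no independent evidence.

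Each genotype had 2 libraries, so the exact permutation test of a single value cannot fall below p = 0.33. WT replicate 2 gave 29 gated nuclei and 104870 UMIs in the cluster, and genes such as Sall4, with 39 UMIs in all gated nuclei, could not be compared at this depth.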

Other observations

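Genes of cell death were also measured in gated nuclei. The 20 p53 target genes summed to 479, 563, 526 and 514 CPM in gated nuclei of the Auts2 cluster, in WT replicates 1 and 2 and Dhx37-/- replicates 1 and 2, and to 251, 260, 287 and 235 CPM in those outside it. Bax, which opens the mitochondrial membrane in apoptosis, was at a mean of 83.0 CPM in the cluster and 5.99 CPM outside, and Mdm2, the ubiquitin ligase of p53, at 63.5 and 91.3 CPM. The 24 apoptosis genes summed to 873, 849, 975 and 934 CPM in the cluster and to 462, 436, 650.0 and 539 CPM outside. Of the p53 targets 6 of 20 were higher in the cluster in all 4 libraries and 2 were lower, and of the apoptosis genes 14 of 24 and 2. Among all genes at 5 CPM or more, a limit that these lists did not have, the shares were 37.7 and 33.7%. Between genotypes no member of either list passed edgeR's test in gated nuclei, in the cluster or outside it. In all gated nuclei the apoptosis genes had higher estimates in Dhx37-/- for 12 of 15 members tested, with a median log2 fold change of 0.29. The p53 targets did for 5 of 11, with a median of -0.18, beside 51.6% of all genes and a median of 0.03. The apoptosis genes summed to 540.1 and 499 CPM in WT and 711 and 654 CPM in Dhx37-/-. In barcodes that were not gated they summed to 522 and 510 against 649 and 621 CPM, so this shift was not particular to gated nuclei.

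Barcodes with 3 or more gate genes that the exclusions removed were counted as well. A UMI of Wt1, Cyp11a1 or Hsd3b6 removed 483 of them, 69 of which lay in the Auts2 cluster. Having 2 or more of Meiob, Dmc1, Prdm9 and Hormad1 removed 279, and 216 of these lay in the cluster.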
